A study of Mus musculus with 40 samples.

Results

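Livers of mice given DDC as first and HFD as second treatment were compared with livers of mice whose first treatment was BD and whose second was HFD. The comparison used the 12 libraries, of 40 in the series, whose titles name DDC+HFD (n = 6) or HFD (n = 6), and no measured value entered the choice. The series is messenger RNA sequencing of snap-frozen whole liver from adult male C57BL/6 mice in 8 groups. DDC+HFD mice received a diet with 0.05% w/w DDC (3,5-diethoxycarbonyl-1,4-dihydrocollidine) as treatment 1 and HFD as treatment 2. HFD mice received BD as treatment 1 and HFD as treatment 2, so HFD is shared by both groups, and the deposited names of both carry 28D. The labels spell out neither BD nor HFD. They also do not say how long DDC was fed, whether it went on during treatment 2, or whether HFD without ethanol was given by tube. The other groups used below were DDC+Cont (DDC, then BD, n = 5) against Control 28D (BD, then BD, n = 5), DDC+EtOH (DDC, then HFD with ethanol, n = 6) against EtOH (BD, then HFD with ethanol, n = 4), and DDC 0D (DDC with no second treatment, n = 4) against Control 0D (BD with no second treatment, n = 4). The daily ethanol dose, infused into the stomach by tube, reached 27 g per kg, and the infusion lasted 28 days at most. No label names a mutation or transgene. Each animal has its own number in the titles, and libraries are called by group and title number (DDC+HFD 30). The deposited names, from which 28D and the sequencing lane were read, carry the same first and second treatment but, for all DDC+HFD libraries, other running numbers than the titles. No label names separate cohorts, so p-values measure the spread between these animals.

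DDC is a porphyrinogenic compound that blocks ferrochelatase, the last enzyme of heme synthesis, and porphyrin plugs then obstruct small bile ducts. Mouse liver answers with a ductular reaction, in which cells with bile duct markers multiply around the portal tracts. Scar-forming stellate cells and portal fibroblasts lay down matrix there, and monocyte-derived macrophages gather. The comparison asks which of these gene programs set the DDC+HFD livers apart from the HFD livers. A lasting difference and one kept up by DDC given during treatment 2 cannot be told apart.

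Reads counted on genes totaled 7249760 to 19092083 per DDC+HFD library and 9396626 to 23168537 per HFD library, and values are given as CPM, in which each count is divided by its library's total and TMM factor. Alb, the hepatocyte product albumin, had 22388 to 61601 CPM in DDC+HFD livers and 37954 to 62116 CPM in HFD livers, and its log2 fold change was -0.14 ± 0.21 (SE; adjusted p = 0.705). Transcripts of 14 exocrine pancreas genes summed to over 1000 CPM in DDC+HFD 30 (8009 CPM), DDC+HFD 33 (3074 CPM), DDC+HFD 36 (1610 CPM) and HFD 14 (8321 CPM). HFD 14 also stood apart on genes of B cells, red blood cells and the cell cycle. The share of all reads that fell on no annotated feature was 23.5% ± 0.780 in DDC+HFD and 21.5% ± 0.574 in HFD libraries (SD, n = 6 each; exact permutation test, two-sided, adjusted p = 0.0195 over 9 library measures, where the smallest raw p possible is 0.00216). Reads placed at more than 1 site made up 23.5% ± 1.88 and 27.0% ± 1.47 of all reads in DDC+HFD and HFD libraries (SD, n = 6 each; same exact permutation test, adjusted p = 0.0325). Reads tallied as ambiguous made up 0.437% ± 0.063 and 0.598% ± 0.061 of all reads in DDC+HFD and HFD libraries (SD, n = 6 each, same exact permutation test, adjusted p = 0.0195). The part of these differences in the gene results was not tested.

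Of 14355 genes tested, 1143 (7.96%) were higher and 788 (5.49%) were lower in DDC+HFD livers at an adjusted p under 0.05, a background of 13.5% called in all. At an unadjusted p under 0.05 there were 4040 genes, 2204 above and 1836 below 0. Every count of list members below is to be read beside these shares and numbers. Adjusted p-values are Benjamini-Hochberg values from edgeR's quasi-likelihood test on all 8 groups, two-sided. The increases were larger: 454 of the 1143 higher genes (39.7%) passed a change of 2-fold, against 65 of the 788 lower genes (8.25%). The median log2 fold change was 0.84 over the higher and -0.35 over the lower genes, against 0.01 over all genes tested. In 719 genes (5.01%) the livers of the groups did not overlap, with every DDC+HFD liver above every HFD liver in 373 genes (2.60%) and below in 346 genes (2.41%). The first principal component, with 30.5% of the variance, ran from -3.56 to 36.3 in DDC+HFD livers and from -29.5 to -9.5 in HFD livers, with DDC+HFD 30 and DDC+HFD 36 nearest to HFD. With only the 12 libraries in the fit the counts were 773 higher and 603 lower, and without the libraries rich in pancreatic transcripts they were 1206 and 654. Leaving out 1 library at a time gave 777 to 1286 higher genes, and the number of lower genes fell to 436 without HFD 15, 486 without HFD 17 and 496 without DDC+HFD 33. The plot of differences by level shows the change of each gene beside its level of expression.

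**Figure D1:**
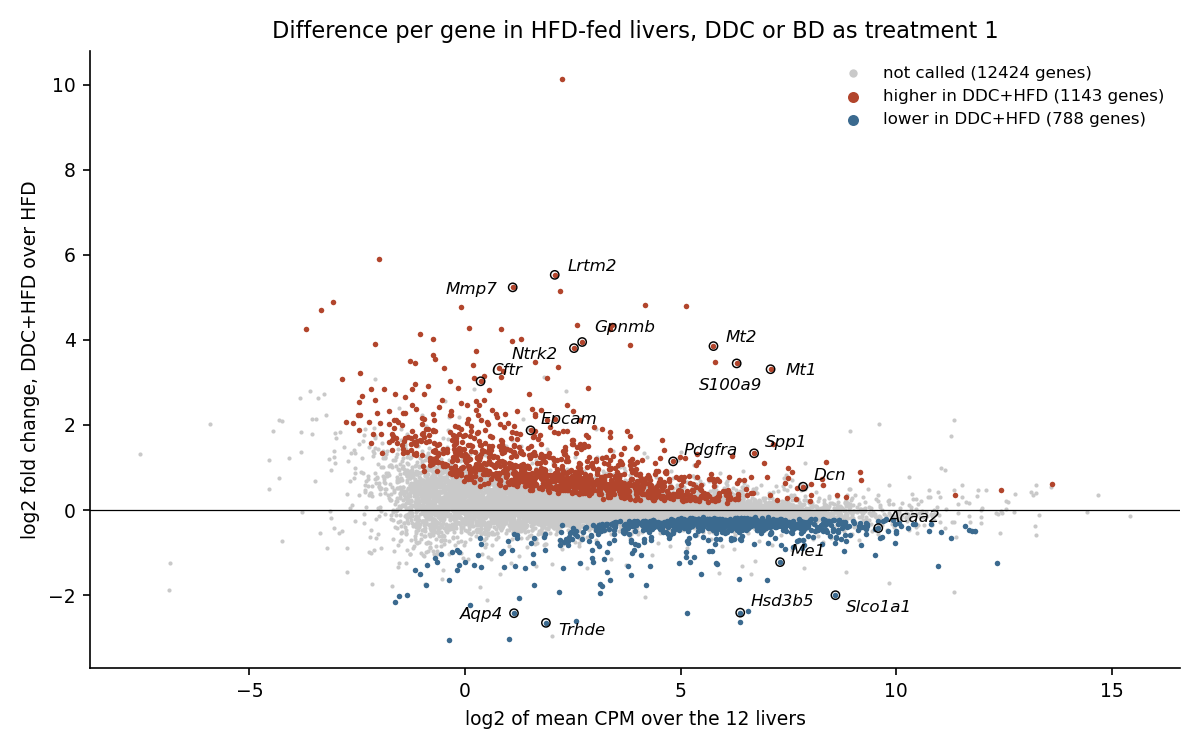
Each point is 1 of 14355 genes, with the log2 of its mean CPM over the 12 livers on the x axis and its log2 fold change, DDC+HFD over HFD, on the y axis. Red points are the 1143 genes higher in DDC+HFD, blue points the 788 lower genes, grey points were not called, and named genes are circled. Many of the large increases lie among genes of low CPM, and the decreases of highly expressed genes are mostly small.

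Genes of the bile duct epithelium were higher in DDC+HFD livers. Of the 19 tested members of this list of 20, 13 rose and 0 fell, with a median log2 fold change of 1.33 against 0.01 over all genes. All 19 had a fold change above 0, and the mean log2 level of the list did not overlap between groups (2.11 to 2.75 in DDC+HFD and 1.44 to 1.71 in HFD livers). Without the libraries rich in pancreatic transcripts 12 of 20 rose. In whole liver, more cells of a type and more RNA per cell cannot be told apart. Epcam, an adhesion molecule of biliary and progenitor cells (chr17:87635979-87651129, + strand, protein-coding; GRCm38, as all gene positions here), had 2.92, 4.41 and 6.41 CPM as lowest, median and highest value in DDC+HFD livers, against 0.861, 1.24 and 1.42 CPM in HFD livers. The groups did not overlap, and the log2 fold change was 1.87 ± 0.22 (SE; adjusted p = 3.5e-07).

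Bicc1, an RNA-binding protein needed for normal bile duct and kidney tubule structure in mice (chr10:70922832-71159700, - strand), had 8.53, 9.96 and 11.8 CPM in DDC+HFD livers, against 2.92, 3.59 and 4.26 CPM in HFD livers. Its log2 fold change was 1.48 ± 0.15 (SE; adjusted p = 1.48e-07), the smallest adjusted p among all genes tested. Spp1, which encodes osteopontin, a secreted glycoprotein made by duct cells and macrophages (chr5:104435118-104441050, + strand), had 110, 147 and 195 CPM in DDC+HFD livers, against 42.9, 58.8 and 81.4 CPM in HFD livers. Every DDC+HFD liver was above every HFD liver for both genes. The log2 fold change of Spp1 was 1.33 ± 0.17 (SE; adjusted p = 2.81e-06).

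Other duct genes that rose covered several functions. Cftr, the chloride channel of duct cells, reached a log2 fold change of 3.03 ± 0.46 (SE) from a median of 1.88 CPM in DDC+HFD against 0.208 CPM in HFD livers. Prom1, a membrane protein of progenitor cells, rose by 2.32 ± 0.33, Cdh6, a cadherin, by 2.26 ± 0.33, and Ehf, an epithelial transcription factor, by 2.11 ± 0.27 (log2, SE). Tspan8, a tetraspanin, rose by 1.85 ± 0.26 and the duct keratin gene Krt19 by 1.79 ± 0.32. Pkhd1, the ciliary protein gene of recessive polycystic disease, rose by 0.74 ± 0.13. None of these 7 genes overlapped between groups. The keratin gene Krt7 had a median of 0.980 CPM in DDC+HFD and 0.693 CPM in HFD livers (log2 fold change 0.86 ± 0.33, adjusted p = 0.0789). Sox9, a transcription factor of duct and progenitor cells, had medians of 4.58 and 3.41 CPM in DDC+HFD and HFD livers (log2 fold change 0.18 ± 0.26, adjusted p = 0.698), and its sign turned to -0.21 ± 0.30 (adjusted p = 0.726) without the libraries rich in pancreatic transcripts. Mmp7, a matrix protease that damaged bile ducts secrete, had the second largest increase under the naming rule, 5.23 ± 0.55 (SE; adjusted p = 1.65e-07). It had 2.00 to 5.8 CPM in DDC+HFD and 0 to 0.210 CPM in HFD livers, from 324 and 9 reads in all.

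**Figure D2:**
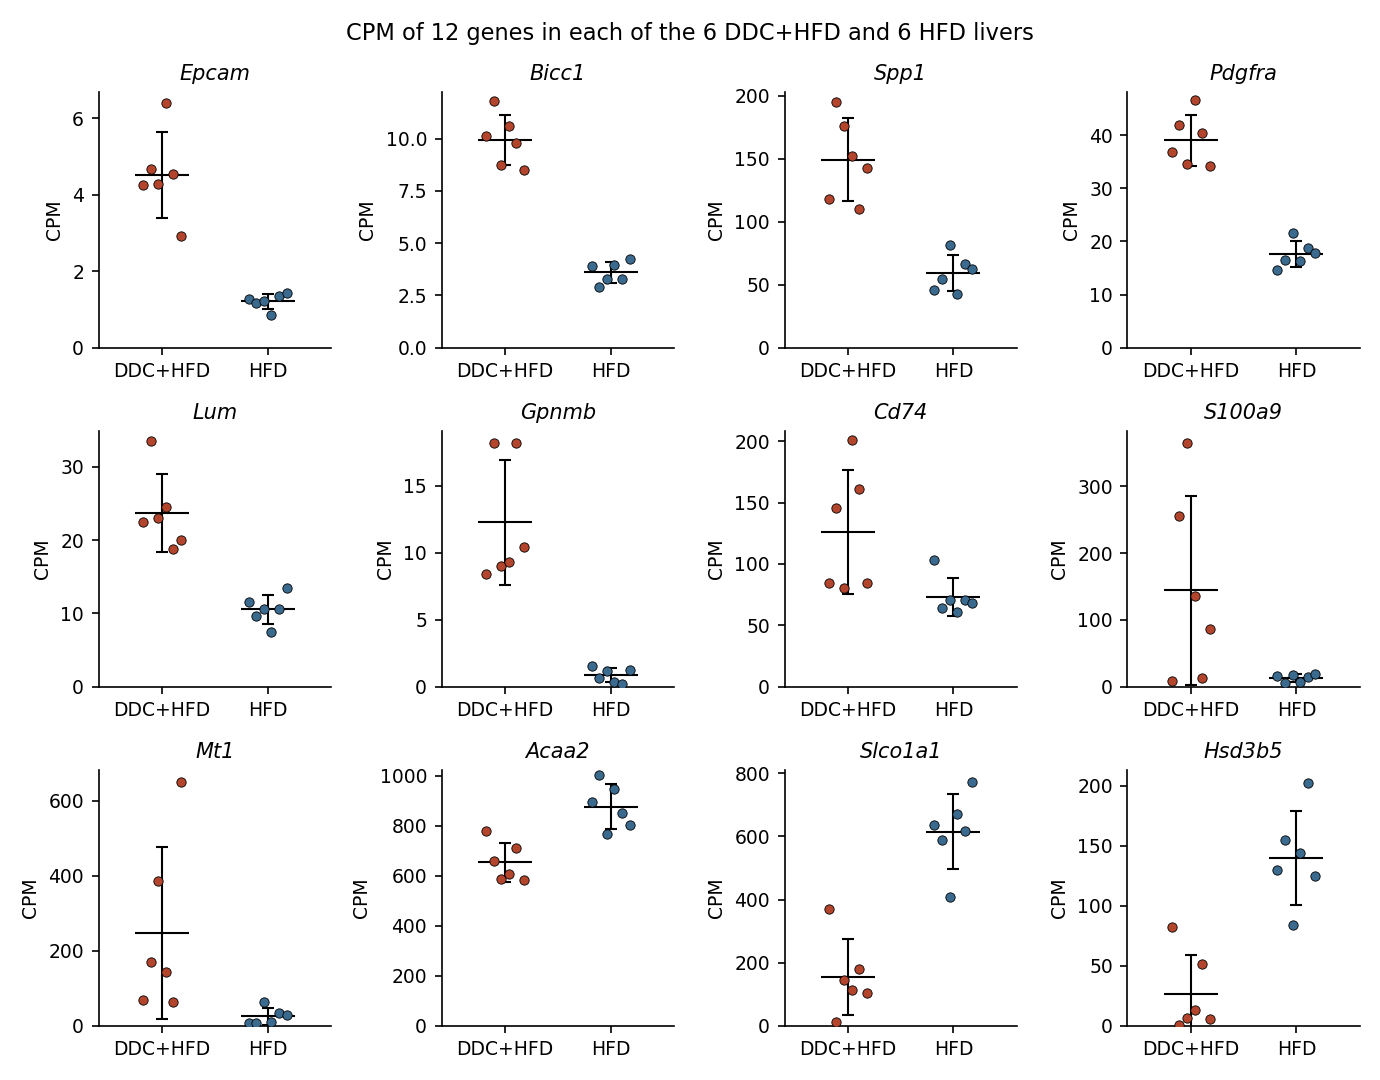
CPM of 12 genes in each liver, with DDC+HFD left of HFD in every panel; each point is 1 liver, the horizontal line is the mean and the bars span 1 SD (n = 6 each), on axes that start at 0. The panels of Epcam, Bicc1, Spp1, Pdgfra, Lum, Gpnmb, Mt1, Slco1a1 and Hsd3b5 show no overlap between groups, whereas Cd74, S100a9 and Acaa2 overlap.

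Matrix genes rose to a smaller extent. Of 28 structural matrix genes tested, 14 rose and 1 fell, and the median log2 fold change was 0.54 over the list. Without the pancreas-rich libraries 10 of 28 rose and 0 fell. Lum, a keratan sulfate proteoglycan that organizes collagen fibrils (chr10:97565128-97572703, + strand), had 18.8, 22.7 and 33.6 CPM in DDC+HFD livers, against 7.49, 10.6 and 13.4 CPM in HFD livers, with no overlap (log2 fold change 1.18 ± 0.19 SE, adjusted p = 5.79e-05). Col6a3, a chain of the beaded-filament collagen VI, had 39.7, 57.9 and 82.5 CPM in DDC+HFD and 19.7, 23.4 and 39.3 CPM in HFD livers (1.14 ± 0.21, adjusted p = 0.000339). Thbs2, a matrix glycoprotein, had 8.94 to 16.3 CPM in DDC+HFD and 4.57 to 7.10 CPM in HFD livers (adjusted p = 1.6e-05). The small proteoglycan genes Bgn and Dcn rose by 0.70 ± 0.17 and 0.55 ± 0.12 (log2, SE) and the laminin chain gene Lamb1 by 0.47 ± 0.10, all 4 without overlap. Vcan, a large proteoglycan that neutrophils and monocytes also carry, rose by 1.74 ± 0.45 with values from 0.827 to 12.0 CPM in DDC+HFD and from 0.616 to 1.79 CPM in HFD livers.

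The fibril-forming collagens were less separated. Col1a2 rose by 0.78 ± 0.25 (adjusted p = 0.0297), a call that 8 of 22 alternatives did not keep. Col1a1 had a median of 7.22 CPM and at most 11.0 CPM in DDC+HFD livers, against 3.44 and 11.5 CPM in HFD livers (log2 fold change 0.76 ± 0.43, adjusted p = 0.247). Its single HFD value above 4.73 CPM was that of HFD 19. Col3a1 had medians of 78.1 and 57.4 CPM in DDC+HFD and HFD livers (0.40 ± 0.26, adjusted p = 0.311). Postn, a matricellular protein of fibroblasts, went the other way with medians of 8.43 and 12.0 CPM in DDC+HFD and HFD livers and fell by 0.56 on the log2 scale (SE 0.18, adjusted p = 0.0269). That call was lost without HFD 18, HFD 19, DDC+HFD 33 or DDC+HFD 36.

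Among 17 enzymes and inhibitors of matrix turnover, 8 rose and 0 fell, with a median log2 fold change of 0.82. Mmp2, a gelatinase of stellate cells, rose by 1.18 ± 0.22 with no overlap. Loxl1, a collagen cross-linking oxidase, rose by 1.26 ± 0.30, Timp2, an inhibitor of matrix proteases, by 0.98 ± 0.19, and Plod2, a collagen lysyl hydroxylase, by 0.87 ± 0.20. Timp1, an inhibitor that rises in active scarring, had 0.258 to 0.600 CPM in DDC+HFD and 0.0453 to 0.525 CPM in HFD livers, from 30 and 15 reads in all (1.04 ± 0.55, adjusted p = 0.208). Without the libraries rich in pancreatic transcripts 4 of the 17 rose, and the call of Loxl1 was lost (adjusted p = 0.0864).

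Stellate cell genes rose with the matrix. Of 19 tested, 8 rose and 0 fell (median log2 fold change 0.45), and the mean log2 level of the list did not overlap, at 3.68 to 3.97 in DDC+HFD and 3.25 to 3.58 in HFD livers. The same number, 8, rose without the pancreas-rich libraries. Pdgfra, a platelet-derived growth factor receptor of fibroblasts and stellate cells (chr5:75152292-75198215, + strand), had 34.2, 38.6 and 46.5 CPM in DDC+HFD livers, against 14.6, 17.2 and 21.7 CPM in HFD livers. The lowest DDC+HFD liver was above the highest HFD liver, and the log2 fold change was 1.14 ± 0.14 (SE; adjusted p = 7.62e-07). Cygb, the stellate cell globin cytoglobin, had 10.1, 10.9 and 14.1 CPM in DDC+HFD and 4.16, 5.25 and 5.95 CPM in HFD livers (1.16 ± 0.13, adjusted p = 3.13e-07). Pdgfrb, the receptor partner of Pdgfra in these cells, rose by 0.92 ± 0.11 (adjusted p = 8.52e-07). Des, the intermediate filament desmin, rose by 0.56 ± 0.16 (adjusted p = 0.0158). Acta2, the smooth muscle actin of contractile myofibroblasts, had medians of 4.17 and 2.40 CPM in DDC+HFD and HFD livers with wide overlap (0.33 ± 0.39, adjusted p = 0.608).

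Genes of recruited and scar-associated macrophages were higher in every DDC+HFD liver taken as a list. Of 16 tested, 12 rose and 0 fell, all 16 had a fold change above 0, and the median log2 fold change was 1.33. The mean log2 level ran from 3.13 to 4.00 in DDC+HFD and from 2.17 to 2.57 in HFD livers, with DDC+HFD 32 highest, and 12 of 16 rose without the pancreas-rich libraries as well. Gpnmb, a lysosomal membrane glycoprotein of lipid-laden and scar macrophages (chr6:49036546-49070929, + strand), had 8.38, 9.90 and 18.2 CPM in DDC+HFD livers, against 0.227, 0.882 and 1.58 CPM in HFD livers. The groups were far apart, with a log2 fold change of 3.95 ± 0.65 (SE; adjusted p = 0.000114). Trem2, a lipid-sensing receptor of these cells, had 2.80, 3.04 and 4.73 CPM in DDC+HFD and 0.630, 0.906 and 1.45 CPM in HFD livers (1.83 ± 0.36, adjusted p = 0.000881).

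Cd63, a tetraspanin of lysosome-related vesicles, rose by 1.51 ± 0.29, Ms4a7 by 1.34 ± 0.30, the fractalkine receptor gene Cx3cr1 by 1.2 ± 0.21 and Cd9, a tetraspanin, by 0.60 ± 0.15, all without overlap. Ly6c2, which marks young inflammatory monocytes, rose by 2.72 ± 0.50 but ranged from 0.451 to 11.6 CPM in DDC+HFD and from 0.344 to 1.45 CPM in HFD livers. Mmp12, the macrophage elastase, had 2.19 to 5.86 CPM in DDC+HFD and 0.453 to 1.33 CPM in HFD livers without overlap, yet its adjusted p was 0.0520 (2.14 ± 0.75). Lgals3, the galectin of activated macrophages, had medians of 13.5 and 6.79 CPM in DDC+HFD and HFD livers (0.87 ± 0.30, adjusted p = 0.0506). Of 22 alternatives, 9 called Lgals3 and 5 called Mmp12. Spp1 belongs to this list as well as to the duct list.

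Resident Kupffer cell genes moved little: 1 of 13 tested rose, against 7.96% higher over all genes tested, and 0 fell, with a median log2 fold change of 0.25. That gene was C1qb, a chain of complement C1q (0.46 ± 0.14, adjusted p = 0.0288). The count was 0 to 3 when any 1 library was left out and 7 without the libraries rich in pancreatic transcripts, and C1qb itself lost its call without HFD 14, HFD 15, HFD 17, HFD 19, DDC+HFD 32, DDC+HFD 35 or DDC+HFD 37. Lysosomal genes rose in 8 of 20 and fell in 1 of 20, with a median of 0.19. Ctss, a cathepsin of antigen-presenting cells, rose by 0.71 ± 0.19 (log2, SE), and Atp6v0d2, a proton pump subunit of macrophages and osteoclasts, by 1.56 ± 0.43. Lipa, the lysosomal acid lipase, fell by 0.20 (SE 0.06) with no overlap, at 243 to 276 CPM in DDC+HFD and 279 to 310 CPM in HFD livers. Without DDC+HFD 32 the count of higher lysosomal genes was 4, and without HFD 15 or HFD 17 it was 5.

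Of 7 genes of MHC class II antigen presentation, 6 rose and 0 fell, with a median of 0.74. Cd74, the invariant chain (chr18:60803848-60812652, + strand), had 80.1, 115 and 201 CPM in DDC+HFD livers, against 60.9, 69.3 and 104 CPM in HFD livers. The ranges overlapped because of HFD 14, the highest HFD liver (0.79 ± 0.23, adjusted p = 0.0194). The count rested on single livers: it was 0 without DDC+HFD 35, HFD 15 or HFD 17, 1 without DDC+HFD 32, 2 without DDC+HFD 36 or HFD 18, 3 without HFD 16 or HFD 19, and 7 without HFD 14 or without all pancreas-rich libraries.

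Of 12 genes of T and NK cells 4 rose and 0 fell. They included Ncr1, an activating receptor of NK cells (1.79 ± 0.45, adjusted p = 0.00722), and Gzma, a granule protease of cytotoxic cells (1.84 ± 0.45, adjusted p = 0.00528), with medians of 0.767 and 1.04 CPM in DDC+HFD and 0.196 and 0.281 CPM in HFD livers. None of 8 B and plasma cell genes was called by edgeR (1 had an unadjusted p under 0.05), and DESeq2 called 1 lower. Without HFD 14, 2 of the 8 were higher. Of 21 cytokine and chemokine genes 7 rose and 0 fell, with a median of 0.52, and 4 rose without HFD 17. Cx3cl1, the ligand of the Cx3cr1 receptor named above, had 2.00 to 2.87 CPM in DDC+HFD and 0.344 to 1.07 CPM in HFD livers (1.71 ± 0.27, adjusted p = 5e-05). Cxcl14, a chemokine of epithelia and fibroblasts, rose by 1.86 ± 0.32, the adhesion molecule gene Vcam1 by 0.68 ± 0.17, Tgfb2, a fibrogenic growth factor, by 1.29 ± 0.39, and Tnf by 1.21 ± 0.40. The call of Tnf was lost in 10 of 21 alternatives and that of Tgfb2 in 6 of 22.

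Capillary endothelium genes rose in 2 of 6. Cd34, a sialomucin of capillary endothelium and fibroblasts, had a lowest value of 5.2 CPM in DDC+HFD and a highest value of 3.29 CPM in HFD livers (1.32 ± 0.19, adjusted p = 9.13e-06). Esm1, an endothelial proteoglycan, rose by 1.68 ± 0.43 (adjusted p = 0.00758). None of 9 sinusoidal endothelium genes was called by edgeR or DESeq2 or had an unadjusted p under 0.05, and their median was -0.02. Of 4 red blood cell genes 2 were lower, and 1 was without HFD 14 or without DDC+HFD 30, 32, 35, 36 or 37. Slc4a1, the red cell anion exchanger, had 56.7 CPM in HFD 14 and at most 1.54 CPM in the other HFD livers, and its log2 fold change was -2.59 ± 0.82 with that library and 0.77 ± 0.47 without it. Alas2, the erythroid aminolevulinate synthase that opens heme synthesis in red cell precursors, had 37.3 to 101 CPM in DDC+HFD and 109 to 158 CPM in HFD livers and fell by 0.80 (SE 0.19, adjusted p = 0.00374) with no overlap.

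Several of the 15 largest increases belong to none of these cell lists. Lrtm2, a leucine-rich repeat membrane protein (chr6:119315133-119330766, - strand), had 2.32, 7.17 and 17.2 CPM in DDC+HFD livers, against 0, 0.177 and 0.315 CPM in HFD livers. With 642 and 15 reads in all in DDC+HFD and HFD libraries, its log2 fold change of 5.53 ± 0.59 (SE; adjusted p = 2.14e-07) was the largest under the naming rule. Ntrk2, a receptor tyrosine kinase that binds BDNF and a gene higher in female than in male mouse liver, had 3.91, 9.47 and 24.1 CPM in DDC+HFD and 0.172, 0.716 and 1.18 CPM in HFD livers (3.81 ± 0.43, adjusted p = 3.99e-07). Both genes were highest in DDC+HFD 32. Gipc2, a PDZ-domain scaffold, rose by 4.26 ± 0.55, Shc2, a receptor adaptor, by 3.33 ± 0.60, and Gldn, gliomedin, by 3.13 ± 0.59. Sytl5, a vesicle transport protein, rose by 2.87 ± 0.42, Scube1, a secreted EGF-domain protein, by 2.57 ± 0.38, Dnah7b, a dynein heavy chain of motile cilia, by 2.47 ± 0.28, and the kinase gene Pak6 by 2.36 ± 0.36.

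The metallothionein genes Mt1 and Mt2 were also among the 15 largest increases. Metallothioneins are small cysteine-rich proteins that bind zinc and copper, and in mouse liver their genes answer to metals through metal response elements in their promoters and to glucocorticoids and inflammation. Both genes lie next to each other. The 250 bases before the first listed RefSeq transcript start of each are shown (GRCm38.p6, + strand, Mt2 at chr8:94172368-94172617 and Mt1 at chr8:94178839-94179088). Capitals mark matches to TGCGCNC or TGCACNC, the core letters of the metal response element, on either strand.
Mt2: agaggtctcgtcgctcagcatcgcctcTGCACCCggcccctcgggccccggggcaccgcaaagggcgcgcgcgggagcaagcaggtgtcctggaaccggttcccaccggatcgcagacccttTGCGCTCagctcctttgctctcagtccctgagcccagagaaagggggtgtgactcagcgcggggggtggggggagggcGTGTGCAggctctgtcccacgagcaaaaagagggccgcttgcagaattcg
Mt1: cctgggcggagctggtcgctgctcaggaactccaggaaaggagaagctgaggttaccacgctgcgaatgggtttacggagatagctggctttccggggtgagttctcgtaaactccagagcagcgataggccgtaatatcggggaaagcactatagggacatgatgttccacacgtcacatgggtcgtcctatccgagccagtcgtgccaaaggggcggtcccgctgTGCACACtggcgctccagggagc

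Over the 300 bases from 250 before to 50 after the start, Mt2 held 4 matches (3 before the start) and Mt1 held 3 (1 before the start). Only the first listed start of each gene was used. Sequence beyond this window was not searched, so the counts need not cover the whole promoter of either gene. Of 27025 mouse promoter windows of that length, 25.6% held at least 1 match, 2% at least 3 and 0.503% at least 4. Among the higher genes with a window, 3.5% of 857 held at least 3 matches, against 3.26% of 614 lower genes and 3.26% of the 10935 tested genes with a window. These matches are descriptions of letters, and binding was not measured.

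Mt1 had 63.6, 156 and 649 CPM in DDC+HFD livers, against 6.36, 19.4 and 63.1 CPM in HFD livers. The lowest DDC+HFD liver lay just above the highest HFD liver, HFD 16, and the log2 fold change was 3.31 ± 0.68 (SE; adjusted p = 0.00142). Mt2 had 27.6, 58.0 and 281 CPM in DDC+HFD and 1.39, 5.83 and 14.9 CPM in HFD livers (3.85 ± 0.80, adjusted p = 0.00173). DDC+HFD 37 was highest for both genes, followed by DDC+HFD 33, and DDC+HFD 30 and DDC+HFD 36 were the lowest. Of the 8 genes of copper and zinc handling tested, these 2 rose and Slc30a10, a manganese exporter, fell by 0.68 (SE 0.14, adjusted p = 0.001), at 56.0 to 81.0 CPM in DDC+HFD and 86.0 to 118 CPM in HFD livers.

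Neutrophil genes had the largest median change among the 40 lists, 3.46, and 11 of 12 rose, yet none of the 12 was free of overlap. Without the pancreas-rich libraries 12 of 12 rose. S100a9, a calcium-binding protein of neutrophil cytosol (chr3:90692632-90695721, - strand), had 7.87, 111 and 365 CPM in DDC+HFD livers, against 4.77, 15.5 and 18.9 CPM in HFD livers (3.45 ± 0.67, adjusted p = 0.000771). S100a9 had 86.6 to 365 CPM in DDC+HFD 32, 33, 35 and 37, above every HFD liver, while DDC+HFD 30 and DDC+HFD 36 had 7.87 and 13.4 CPM, within the HFD range. DDC+HFD 30, 33 and 36 are the DDC+HFD livers rich in pancreatic transcripts. The summed CPM of the list ran from 21.6 to 1119 in DDC+HFD and from 16.9 to 58.6 in HFD livers. Genes of the granules made in neutrophil precursors took part: Ngp, neutrophilic granule protein, had 0.387, 26.1 and 89.4 CPM in DDC+HFD and 0.227, 1.23 and 2.83 CPM in HFD livers (4.82 ± 0.87, adjusted p = 0.000342). Ltf, lactoferrin, rose by 4.80 ± 0.92 and Elane, neutrophil elastase, by 3.49 ± 0.57. Csf3r, the receptor that neutrophils keep throughout life, rose by 0.83 ± 0.28 (adjusted p = 0.0444), a call lost in 10 of 22 alternatives.

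Of 24 acute phase genes, whose products hepatocytes secrete in inflammation, 3 rose and 0 fell, against 7.96% higher over all genes tested. The median log2 fold change was 0.58, and all 24 values were above 0. The mean log2 level of the list overlapped widely, at 9.09 to 11.2 in DDC+HFD and 8.65 to 10.4 in HFD livers, with DDC+HFD 30 and DDC+HFD 36 below HFD 16, HFD 18 and HFD 19. The genes that rose were C3, complement component 3 (0.61 ± 0.17, adjusted p = 0.0171), Serpina3n, a serine protease inhibitor (0.90 ± 0.23, adjusted p = 0.00784), and Apcs, serum amyloid P (1.13 ± 0.37, adjusted p = 0.037, lost in 11 of 22 alternatives). The count ran from 1 (without HFD 15, DDC+HFD 33 or DDC+HFD 37) to 9 (without HFD 16 or DDC+HFD 30). Lcn2, a siderophore-binding protein of stressed hepatocytes and neutrophils, had 95.6, 874 and 1270 CPM in DDC+HFD and 39.2, 76.2 and 739 CPM in HFD livers, the highest HFD value being that of HFD 16 (1.85 ± 0.72, adjusted p = 0.0806). The map of list levels by liver shows that the order of DDC+HFD livers on neutrophil genes was not their order on duct genes.

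**Figure D3:**
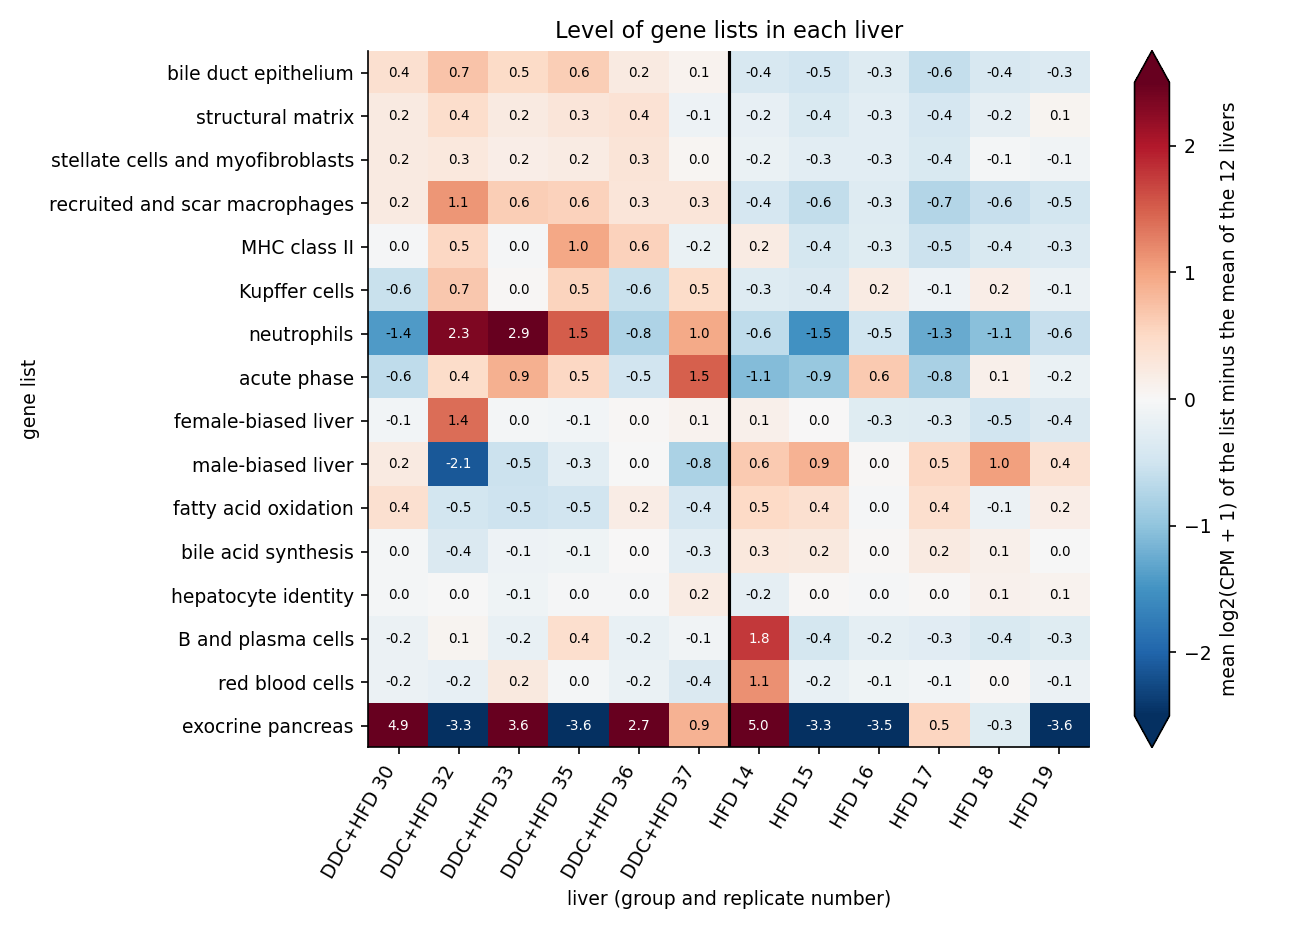
Each cell gives the mean log2(CPM + 1) of a gene list (rows) in 1 liver (columns, the 6 DDC+HFD livers left of the 6 HFD livers), minus the mean of that list over the 12 livers; red is above and blue below. Bile duct, stellate and scar macrophage rows are above 0 or at 0 in all DDC+HFD livers and below 0 in all HFD livers, whereas the neutrophil row is high in DDC+HFD 32, 33, 35 and 37 only, and the exocrine pancreas row is high in DDC+HFD 30, 33 and 36 and HFD 14.

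In the other groups of the series, S100a9 and Ngp did not reach the levels of those 4 livers. The 4 livers were picked by their values, so this sets chosen livers beside whole groups. The test of S100a9 between whole groups, given below, did not pass adjustment. S100a9 had at most 62.4 CPM in DDC+Cont, 19.4 CPM in Control 28D, 22.8 CPM in DDC+EtOH, 9.96 CPM in EtOH, 16.3 CPM in DDC 0D and 0.795 CPM in Control 0D livers. Ngp had at most 10.9 CPM in any group other than DDC+HFD. Mt1 behaved otherwise: its median was 116 CPM in DDC+EtOH and 126 CPM in EtOH livers, and 120 CPM in DDC 0D against 3.95 CPM in Control 0D livers. In DDC+Cont livers its median was 58.4 CPM and its highest value 108 CPM, against 13.4 and 99.1 CPM in Control 28D livers. The difference of Mt1 between DDC+EtOH and EtOH was 0.08 ± 0.69 on the log2 scale (adjusted p = 0.956).

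**Figure D4:**
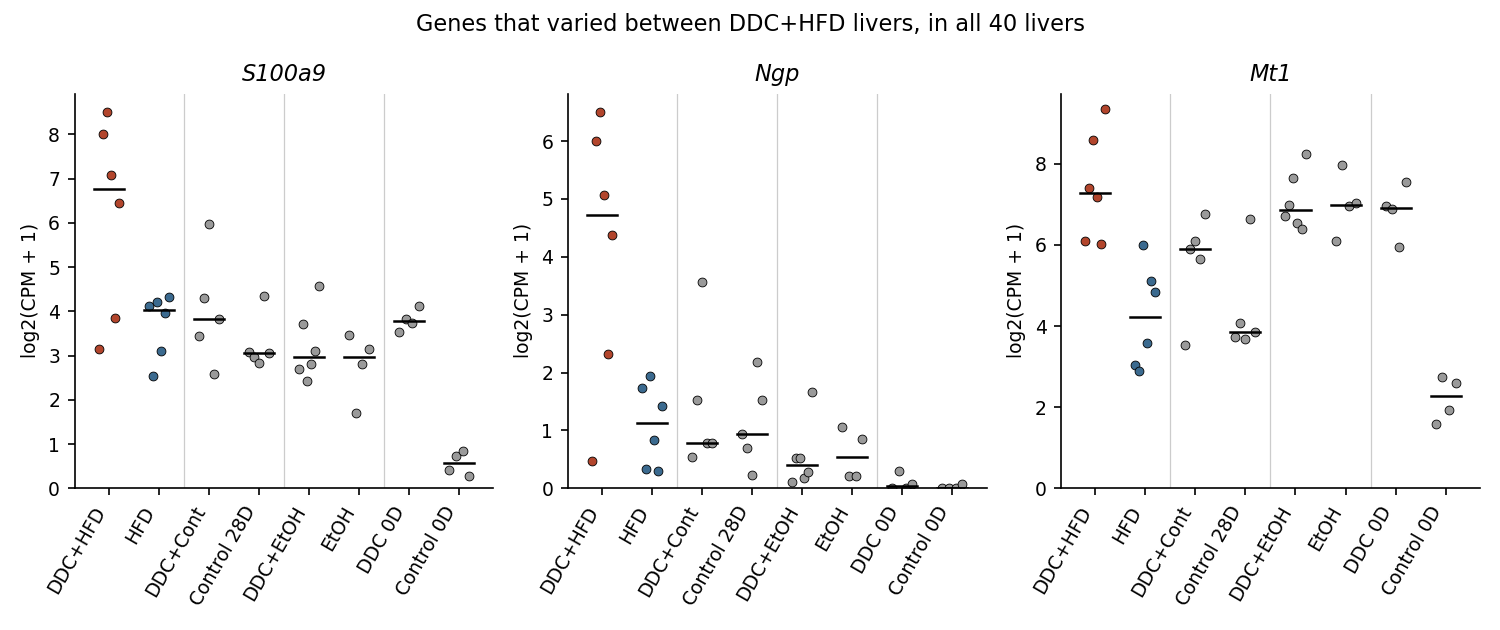
S100a9, Ngp and Mt1 in all 40 livers as log2(CPM + 1), with each DDC group left of the group without DDC; points are livers and the line is the group median. For S100a9 and Ngp, 4 of 6 DDC+HFD livers lie above every other liver of the series, and for Mt1 the DDC+HFD, DDC+EtOH, EtOH and DDC 0D livers share a high range.

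Among hepatocyte genes, those with male-biased expression held several of the largest decreases. Sex-biased genes of mouse liver follow the pattern of growth hormone pulses, and all mice here were male. Of 16 male-biased genes tested 5 fell and 0 rose, with a median log2 fold change of -0.94, and 8 fell without the pancreas-rich libraries or without DDC+HFD 36 alone. Slco1a1, a bile acid and organic anion uptake transporter (chr6:141907282-141946962, - strand), had 11.7, 129 and 370 CPM in DDC+HFD livers, against 408, 626 and 773 CPM in HFD livers (-2.00 ± 0.44, adjusted p = 0.00256). Hsd3b5, a steroid dehydrogenase of male liver (chr3:98618634-98630252, - strand), had 0.676, 9.57 and 82.0 CPM in DDC+HFD livers, against 83.7, 137 and 203 CPM in HFD livers (-2.41 ± 0.58, adjusted p = 0.00524). Neither gene overlapped, and DDC+HFD 32 was lowest for both. With only the 12 libraries in the fit the adjusted p was 0.0540 for Slco1a1 and 0.101 for Hsd3b5.

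Cyp7b1, an oxysterol hydroxylase, fell by 0.87 (SE 0.27, adjusted p = 0.0248), Ugt2b38, a glucuronosyltransferase, by 1.21 (SE 0.32) and Susd4, a complement regulator, by 1.00 (SE 0.26). Elovl3, a fatty acid elongase, had 12.9, 239 and 455 CPM in DDC+HFD and 468, 662 and 982 CPM in HFD livers, with no overlap but an adjusted p of 0.0703 (-1.46 ± 0.55). Of 14 female-biased genes 3 rose and 0 fell, 2 rose without DDC+HFD 32, and 5 rose without DDC+HFD 30 or DDC+HFD 36. They were Ntrk2, the flavin monooxygenase gene Fmo2 (1.08 ± 0.20, adjusted p = 0.000464) and Sult1e1, estrogen sulfotransferase (3.28 ± 0.84, adjusted p = 0.00851). The call of Sult1e1 rested on DDC+HFD 32, at 13.7 CPM, and its adjusted p was 0.114 without that liver.

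The remaining largest decreases had varied functions. Trhde, an ectopeptidase that degrades thyrotropin-releasing hormone, had 0.300, 0.657 and 2.71 CPM in DDC+HFD livers, against 5.2, 5.90 and 8.09 CPM in HFD livers (-2.65 ± 0.37, adjusted p = 7.33e-06), the largest decrease under the naming rule. Aqp4, a water channel, fell by 2.42 (SE 0.37), the acetyltransferase-family gene Nat8f5 by 1.79 (SE 0.38), and Cyp2u1, a fatty acid hydroxylase, by 1.76 (SE 0.29). Srgap3, a GTPase regulator, fell by 1.76 (SE 0.36), Ppp1r3c, a glycogen-targeting phosphatase subunit, by 1.65 (SE 0.29) and Slc22a28, a member of the organic anion transporter family, by 1.65 (SE 0.30). Decreases of 1.13 to 1.51 were found for Cyp2c55, Serpine2, a protease inhibitor, C4a, a complement C4 gene, Sucnr1, the succinate receptor, Leap2, a hepatic peptide that opposes ghrelin, and Chic1. C4a has a near-identical neighbor and Cyp2c55 close family members, so their counts are uncertain.

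Genes of fatty acid oxidation were lower by small steps. Of 24 tested 11 fell and 0 rose, 23 had a fold change below 0, and the median was -0.34 against 0.01 over all genes. Acaa2, the mitochondrial thiolase (chr18:74779197-74806208, + strand), had 582, 634 and 778 CPM in DDC+HFD livers, against 766, 872 and 1000 CPM in HFD livers, with a small overlap (-0.42 ± 0.09, adjusted p = 0.00133). Acadvl, the very-long-chain acyl-CoA dehydrogenase, had 321 to 405 CPM in DDC+HFD and 407 to 487 CPM in HFD livers and did not overlap (-0.32 ± 0.07, adjusted p = 0.00363). Decr1, a mitochondrial reductase, fell by 0.43 (SE 0.10) and Acadm, the medium-chain dehydrogenase, by 0.32 (SE 0.09). Larger decreases were found for Acaa1b, a peroxisomal thiolase, at 1.07 (SE 0.25), and Acot1, a thioesterase induced by PPAR-alpha, at 1.25 (SE 0.40, adjusted p = 0.0335). The call of Acot1 was lost in 8 of 22 alternatives, among them leaving out HFD 14, HFD 17 or any DDC+HFD liver other than DDC+HFD 30. DDC+HFD 30 and DDC+HFD 36 stayed in the HFD range, with a mean log2 level of the list of 7.6 and 7.38, against 6.69 to 6.78 in the other 4 DDC+HFD livers and 7.07 to 7.70 in HFD livers. Both are rich in pancreatic transcripts, as is DDC+HFD 33, which was below the HFD range. The count was 7 without HFD 14 or HFD 17, 6 without HFD 15, DDC+HFD 32, DDC+HFD 33 or DDC+HFD 37, and 5 without DDC+HFD 35. With only the 12 libraries in the fit it was 4, and without the pancreas-rich libraries 13.

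Fatty acid synthesis had 1 of 17 genes called, against 5.49% lower over all genes tested. It was Me1, the malic enzyme that supplies NADPH, which fell by 1.22 (SE 0.30, adjusted p = 0.0066). The call of Me1 was lost without the libraries rich in pancreatic transcripts (adjusted p = 0.055). Fasn, fatty acid synthase, had 645 to 796 CPM in 5 DDC+HFD livers and 3373 CPM in DDC+HFD 32, against 1035 to 1954 CPM in HFD livers (-0.54 ± 0.45, adjusted p = 0.458). Scd1, stearoyl-CoA desaturase, had medians of 7981 and 11309 CPM in DDC+HFD and HFD livers (-0.58 ± 0.34, adjusted p = 0.269). The number of lower genes in this list was 3 without DDC+HFD 32 or DDC+HFD 30. Of 13 lipid droplet genes 1 rose and 2 fell. The number lower was 4 without DDC+HFD 30 and 3 without HFD 19 or DDC+HFD 36, and the number higher was 0 without HFD 15, HFD 16, HFD 17, DDC+HFD 30 or DDC+HFD 36. Mogat1, a monoacylglycerol acyltransferase, fell by 2.24 (SE 0.47) and G0s2, an inhibitor of lipolysis, by 1.63 (SE 0.44). Pnpla2, the lipase that G0s2 inhibits, rose by 0.64 (SE 0.21, adjusted p = 0.0359), a call lost in 10 of 22 alternatives. Plin2, the main droplet coat protein, had medians of 426 and 546 CPM in DDC+HFD and HFD livers (-0.28 ± 0.15, adjusted p = 0.224).

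Bile acid synthesis had 6 of 15 genes lower and 1 higher, with a median of -0.28 and 14 of 15 below 0. Baat, which joins bile acids to taurine or glycine, had 197, 264 and 330 CPM in DDC+HFD livers, against 332, 355 and 392 CPM in HFD livers, and the highest DDC+HFD value was just under the lowest HFD value (-0.44 ± 0.11, adjusted p = 0.00733). Scp2, a peroxisomal sterol carrier and thiolase, fell by 0.48 (SE 0.14), Akr1d1, a steroid reductase, by 0.41 (SE 0.13, adjusted p = 0.0299, lost in 7 of 22 alternatives) and Hsd3b7, a steroid dehydrogenase, by 0.40 (SE 0.11), while Cyp39a1, an oxysterol hydroxylase, rose by 0.67 (SE 0.18). Cyp7a1, the rate-limiting enzyme of the pathway, had medians of 124 and 147 CPM in DDC+HFD and HFD livers (-0.20 ± 0.44, adjusted p = 0.810). Cyp8b1, the sterol hydroxylase that sets the cholic acid share, had medians of 175 and 322 CPM in DDC+HFD and HFD livers (-0.67 ± 0.41, adjusted p = 0.291). Without DDC+HFD 32 the number of lower genes was 3. Of 14 bile transporters 2 fell, Slco1a1 and the bile salt export pump gene Abcb11 (-0.31 ± 0.09, adjusted p = 0.0157), whose call was lost without HFD 15 or DDC+HFD 32.

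Targets of the xenobiotic receptors CAR and PXR fell in 3 of 16 and rose in 0: Cyp2c55, the carboxylesterase gene Ces2a (-0.66 ± 0.16) and the retinal dehydrogenase gene Aldh1a1 (-0.51 ± 0.14). Cyp2b10, the standard CAR target, had medians of 497 and 677 CPM in DDC+HFD and HFD livers (-0.41 ± 0.46, adjusted p = 0.593). Of 23 targets of NRF2, the regulator of antioxidant genes, 5 fell and 1 rose. Aox1, aldehyde oxidase, fell by 0.72 (SE 0.15), Gsta4, a glutathione transferase, by 0.64 (SE 0.15), Gclc, the rate-limiting enzyme of glutathione synthesis, by 0.60 (SE 0.18) and Ephx1, an epoxide hydrolase, by 0.48 (SE 0.15). The calls of Gclc (adjusted p = 0.0231) and Ephx1 (adjusted p = 0.0265) were lost in 5 and 7 of 22 alternatives. Gpx2, an epithelial glutathione peroxidase, rose by 2.69 (SE 0.75) from 27 and 4 reads in all in DDC+HFD and HFD libraries. Nqo1, the quinone reductase used as the standard NRF2 readout, had medians of 8.27 and 10.2 CPM in DDC+HFD and HFD livers (0.02 ± 0.23, adjusted p = 0.964). The number of lower NRF2 targets was 3 without HFD 15, HFD 17, DDC+HFD 32 or DDC+HFD 33.

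Heme synthesis and breakdown genes fell in 2 of 11, Cpox, coproporphyrinogen oxidase (-0.42 ± 0.11, adjusted p = 0.00881), and Urod, uroporphyrinogen decarboxylase (-0.23 ± 0.07, adjusted p = 0.0215). The count was 1 without HFD 15, HFD 17 or DDC+HFD 35 and 3 without HFD 19, DDC+HFD 32 or DDC+HFD 36. Urod had 58.4 to 62.2 CPM in DDC+HFD and 63.9 to 76.9 CPM in HFD livers. Fech, the ferrochelatase that DDC inhibits, had medians of 141 and 139 CPM in DDC+HFD and HFD livers (0.01 ± 0.09, adjusted p = 0.966). Pericentral hepatocyte genes fell in 3 of 15, in 1 without HFD 16 or DDC+HFD 35, in 4 without DDC+HFD 32 and in 2 without any other single library. They were the Wnt target genes Sp5 (-2.16 ± 0.50, from 9 and 49 reads in DDC+HFD and HFD libraries) and Tbx3 (-0.81 ± 0.24), and Lect2 (-0.42 ± 0.14, adjusted p = 0.0487, lost in 16 of 22 alternatives). Of 14 periportal genes 1 fell, against 5.49% lower over all genes tested. It was Etnppl, a phospholyase (-1.23 ± 0.36, adjusted p = 0.0209). The count was 0 without HFD 15, HFD 17, DDC+HFD 32 or DDC+HFD 33 and 2 without DDC+HFD 36. Hepatocyte identity held largely level: of 21 genes Ahsg, fetuin A, rose by 0.46 (SE 0.12) and Ttr, transthyretin, fell by 0.50 (SE 0.11), and the number lower was 2 without HFD 16, DDC+HFD 30 or DDC+HFD 36. In the list of keratin aggregate components, the proteins of Mallory-Denk bodies that DDC feeding brings about in mice, 1 of 13 rose, against 7.96% higher over all genes. It was Tgm2, a transglutaminase (0.36 ± 0.12, adjusted p = 0.0307, lost in 8 of 22 alternatives), and Krt8 and Krt18 had log2 fold changes of -0.12 ± 0.13 and 0.11 ± 0.15. Of 17 clock genes 1 fell, against 5.49% lower over all genes. It was Cry1, which fell by 0.70 (SE 0.21), a call lost in 7 of 22 alternatives. A clock score of 7 of these genes was 0.710 ± 1.13 in DDC+HFD and 1.56 ± 0.521 in HFD livers (SD, n = 6 each; exact permutation test, two-sided, adjusted p = 0.302). With the clock score as a term, 1230 genes were higher and 917 lower, of which 1039 and 701 were also called without it, and Cry1 was not called.

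None of the tested genes was called by edgeR in the lists of cholesterol synthesis (22 genes), interferon response (21), cell cycle (27), p53 targets (17), unfolded protein and integrated stress response (20) and fetal liver (6), nor in the markers of exocrine pancreas (14) and fat tissue (2). At an unadjusted p under 0.05 they held 1, 3, 3, 4, 2, 1, 0 and 0 genes in that order. Over all 14355 genes tested, 4040 passed that unadjusted cut. DESeq2 called 1 gene higher in interferon response (Gbp2), cell cycle (Ccnd1), unfolded protein response (Chac1) and fetal liver (H19), each named after its value was seen, and none in the other 4 lists. The cell cycle list had 7 genes higher without HFD 14, whose mean log2 level of the list was 2.97 against 1.92 to 2.05 in the other HFD livers, and 8 without the pancreas-rich libraries.

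The same first diet was compared in 3 further pairs of groups that share no library with DDC+HFD and HFD. DDC+Cont against Control 28D had 177 higher (1.23%) and 41 lower genes (0.286%), 1.52% in all. DDC+EtOH against EtOH had 591 (4.12%) and 369 (2.57%), 6.69% in all, and DDC 0D against Control 0D had 3954 (27.5%) and 3515 (24.5%), 52.0% in all. Of the 1143 genes higher here, 157 were also higher in DDC+Cont (13.7% of those here and 88.7% of those there), 414 in DDC+EtOH (36.2% and 70.1%) and 993 in DDC 0D (86.9% and 25.1%). Of the 788 lower genes, 22 were also lower in DDC+Cont (2.79% and 53.7%), 164 in DDC+EtOH (20.8% and 44.4%) and 593 in DDC 0D (75.3% and 16.9%). None was called in the opposite direction in DDC+Cont or DDC+EtOH, and 12 of the higher and 15 of the lower genes were in DDC 0D. The numbers called also depend on the number of livers, which differed.

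Tested directly, edgeR called 0 genes for a difference between the change in DDC+HFD over HFD and that in DDC+Cont over Control 28D, where 1087 genes had an unadjusted p under 0.05 and the smallest adjusted p was 0.211. If no gene differed, about 718 genes would be expected at that unadjusted p in either comparison of this paragraph. DESeq2 called 1 gene above 0, Zcchc11 (0.75 ± 0.16 SE, adjusted p = 0.0298). Against the difference between DDC+EtOH and EtOH, edgeR also called 0 genes, with 739 at an unadjusted p under 0.05, and DESeq2 called 2 above 0, Acer2 (0.66 ± 0.15, adjusted p = 0.0453) and Ctsa (0.36 ± 0.08, adjusted p = 0.025), and 1 below 0, Reg2 (adjusted p = 0.000503, against 1 by edgeR). These 4 genes are named after their values were seen. Epcam had log2 fold changes of 1.87 ± 0.22 in HFD, 1.43 ± 0.25 with BD as second treatment and 2.33 ± 0.27 with ethanol. Pdgfra had 1.14 ± 0.14, 0.92 ± 0.15 and 1.36 ± 0.16 in the same order, and Ntrk2 had 3.81 ± 0.43, 4.40 ± 0.47 and 4.41 ± 0.52. For Mt1 and S100a9 the other values were lower, at 0.96 ± 0.69 and 0.08 ± 0.69 for Mt1 and 1.24 ± 0.71 and 0.58 ± 0.76 for S100a9, but the differences from HFD did not pass adjustment (adjusted p of 0.512 or more).

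Against DDC 0D and Control 0D, the livers taken with no second treatment, 1918 genes (13.4%) had a difference above 0 and 2161 genes (15.1%) a difference below 0, 28.4% in all. This contrast mixes the second treatment, the later time and any end of DDC feeding, which cannot be told apart. The DDC difference was smaller after HFD for Gpnmb (difference of log2 fold changes -4.68), Spp1 (-3.37), Epcam (-2.16) and Cygb (-1.12), genes that were also higher in DDC+HFD than in HFD livers. For Timp1 (-6.56), Lcn2 (-6.16) and Nqo1 (-2.37) the change at 0D was large and that after HFD did not pass the test. Hsd3b5 (8.74), Elovl3 (7.28) and Acaa2 (0.87) had deeper decreases at 0D. The difference for Mmp7 was -1.70 ± 1.13 (adjusted p = 0.275) and that for Ntrk2 -1.72 ± 0.72 (adjusted p = 0.0726). Bile duct genes had a median log2 fold change of 1.33 here, 0.95 in DDC+Cont, 1.52 in DDC+EtOH and 3.53 in DDC 0D, and scar macrophage genes 1.33, 0.99, 1.33 and 3.95. NRF2 targets had medians of -0.15, -0.11, -0.19 and 0.76 in that order, and the plot of list medians shows all 4 comparisons.

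**Figure D5:**
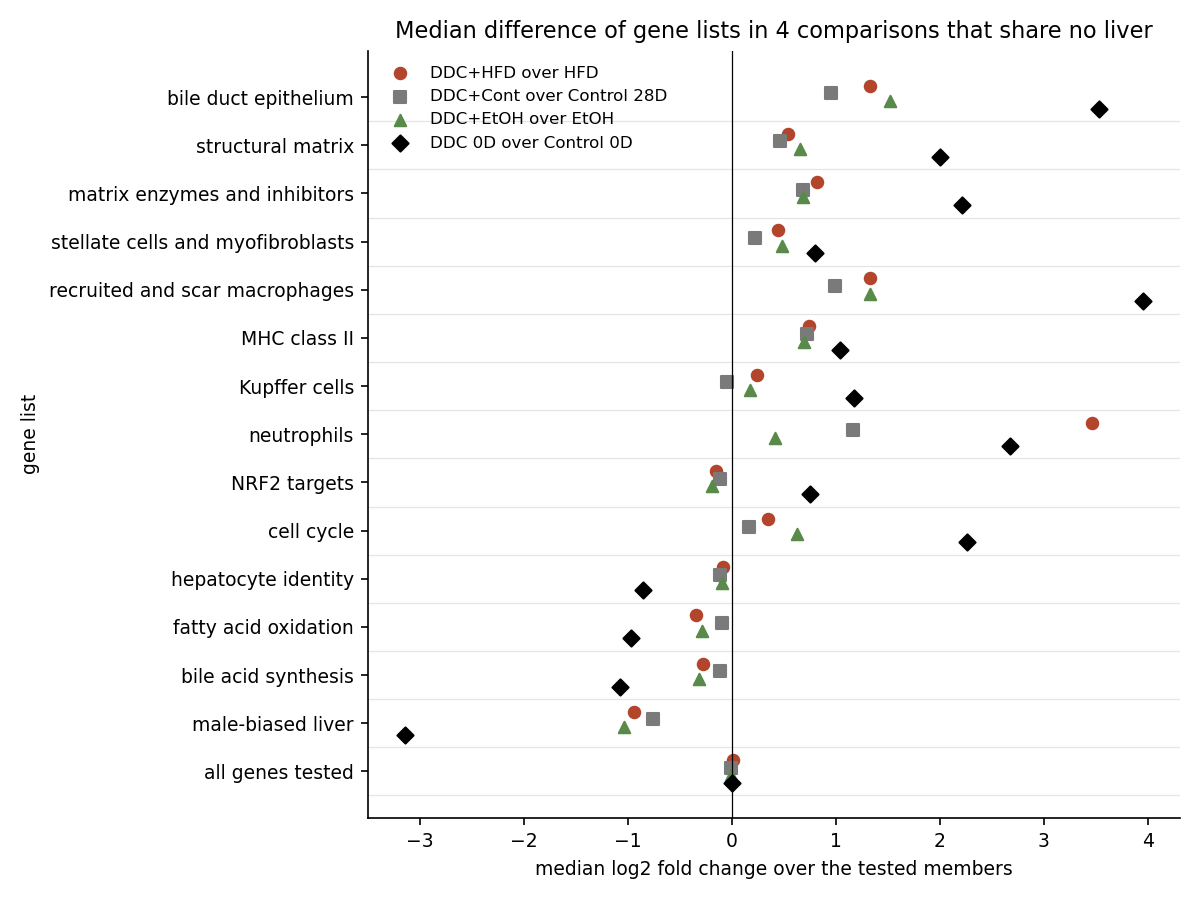
Median log2 fold change over the tested members of each gene list (rows) in 4 comparisons that share no liver, each DDC group over its group without DDC. For most lists the value of DDC+HFD over HFD (circles) lies near those of DDC+Cont (squares) and DDC+EtOH (triangles) and nearer 0 than that of DDC 0D (diamonds), and neutrophil genes, at 3.46 in DDC+HFD, lie above their values in the other 3 comparisons.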

How the data were processed

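Each library's file, as deposited by the authors, gives raw read counts for 24499 gene symbols, followed by 5 tallies of reads assigned to no gene, used here for library measures only. The labels' protocols describe TruSeq mRNA libraries made from liver total RNA. In the submitters' processing notes, mm10, GSNAP and DESeq2 1.12.3 are listed with no role. The program that counted reads, its annotation and its use of strand were not given in the sources used here. A tally holds reads with several placements, so values of near-identical families are uncertain, as are those of overlapping or antisense genes.

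Titles gave the groups. One edgeR 4.0.16 fit (R 4.3.3) held all 40 libraries as 8 groups, with TMM factors, filterByExpr by group (14355 genes kept), a robust quasi-likelihood F test, two-sided, and Benjamini-Hochberg adjustment; an adjusted p under 0.05 was a call. Each SE of an edgeR log2 fold change was worked back from the test and not estimated separately. It is the absolute log2 fold change over the square root of the F value. The test was checked on simulated counts. The naming rule took the 15 strongest rises and falls by log2 fold change (called, not overlapping, the higher group averaging 2 CPM or more, predicted and Mup genes passed over), up to 4 members per list with the smallest adjusted p, members called against their list, 5 differences from 0D each way and a fixed panel. Other list members are named after their values were seen. The members and the 40 lists were chosen with earlier results of these data known.

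Alternatives were RLE size factors, no low-count filter, a stricter one (1 CPM in 6 libraries and a mean count of 10), a term for sequencing lane (6, from deposited names), a non-robust fit, a fit of only the groups compared, DESeq2 1.42.0, an adjusted p under 0.01, glmTreat at a fold of 1.2, each library left out, omission of the 7 libraries of 40 with over 1000 CPM of pancreatic transcripts, and that CPM or the clock score as a term. List counts under these were added after seeing the data. Plots used matplotlib 3.10.9, gene positions GENCODE vM21, and promoters RefSeq.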

Additional observations from a re-analysis of the deposited data

Results flagged for a closer look

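In each group of 6 livers, the highest or lowest value was marked where its gap to the nearest other value was too large a part of the group's range by Dixon's test at the 95% level. This was met by 43 of 390 groups of values (11%). The test's rate of 1 in 20 holds for independent, normally distributed values. Most values here are untransformed CPM, and genes and lists share the same livers, so the 11% cannot be set against that rate. Of the 43, 15 belong to HFD 14 and 9 to DDC+HFD 32.

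DDC+HFD 32 was the highest DDC+HFD liver for Prom1 (22.23 CPM), Trem2 (4.732 CPM), Gldn (8.789 CPM), Sytl5 (31.02 CPM), Sult1e1 (13.67 CPM) and Fasn (3373 CPM) and the lowest for Aldh1a1 (1500 CPM). Its mean log2 level was 8.794 for fatty acid synthesis genes, where the other DDC+HFD livers had 7.835 to 8.07, and 3.08 for female-biased genes, where the others had 1.612 to 1.774.

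HFD 14 was the highest HFD liver for Tspan8 (2.206 CPM), Cd63 (2.206 CPM), Cd74 (103.6 CPM), Vcam1 (37.83 CPM), Slc4a1 (56.74 CPM), Nat8f5 (24.69 CPM), Sult1e1 (0.9456 CPM) and Cyp7a1 (321.7 CPM). Pancreatic transcripts summed to 8321 CPM in this liver, where the other HFD livers had 11.28 to 353.8 CPM. Its mean log2 levels were 3.067 for B and plasma cell genes (others 0.8584 to 1.05), 4.611 for MHC class II, 2.247 for red blood cell, 1.207 for fat tissue, 2.973 for cell cycle (others 1.921 to 2.047) and 1.635 for fetal liver genes.

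Among the other DDC+HFD livers, DDC+HFD 35 was highest for Cftr (5.271 CPM) and Ms4a7 (4.07 CPM) and lowest for sinusoidal endothelium genes (mean log2 level 5.29). DDC+HFD 36 was highest for Bgn (110.2 CPM), Cygb (14.07 CPM) and Mogat1 (1.379 CPM), and DDC+HFD 33 for Elane (17.79 CPM). DDC+HFD 30 was highest for Trhde (2.709 CPM) and Acot1 (10.64 CPM), both genes lower in DDC+HFD. DDC+HFD 37 had the lowest TMM factor (0.8968) and the highest mean log2 level of hepatocyte identity genes (11.11).

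Among the other HFD livers, HFD 16 was highest for Cftr (0.7653 CPM), Lcn2 (739.3 CPM) and Krt18 (283 CPM), HFD 18 was highest for Cyp7b1 (332.2 CPM) and lowest for Fasn (1035 CPM), and HFD 19 was highest for Col1a1 (11.46 CPM). HFD 17 was lowest for Krt19 (0.5164 CPM) and HFD 15 for Vcan (0.6157 CPM).

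The difference between DDC and no DDC differed between HFD-fed livers and livers taken at 0D for 10 named genes, as the interaction of the edgeR fit. On the log2 scale the difference of fold changes was -4.68 for Gpnmb, -3.37 for Spp1, -2.16 for Epcam, -1.12 for Cygb, -2.37 for Nqo1, -6.56 for Timp1 and -6.16 for Lcn2, all larger at 0D. It was 7.28 for Elovl3, 8.74 for Hsd3b5 and 0.87 for Acaa2, whose decrease was deeper at 0D.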

How the results depend on the processing

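The counts of higher and lower genes stayed within 1.5 times of 1143 and 788 under other size factors, both other filters, only the groups compared, no pancreas-rich libraries, lane, pancreatic CPM and clock score as terms, DESeq2 and robust estimation off, and the share of higher genes ran from 56.2% with only the 12 libraries in the fit to 64.8% without the pancreas-rich libraries, against 59.2%. An adjusted p under 0.01 gave 547 higher and 263 lower genes, and glmTreat against a fold of 1.2 gave 526 and 94, as stricter rules must give fewer. Leaving out 1 library gave 777 to 1286 higher and 436 to 888 lower genes, with 436 without HFD 15. The differences from DDC+Cont and DDC+EtOH gained calls with DESeq2 alone, 1 above 0 for the first, and 2 above and 1 below 0 for the second. No paired analysis was possible because the groups share no replicate number.

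Of 125 named genes called, 86 kept their call under all alternatives run for them, and 39 lost it in at least 1. Of 21 named genes not called, 8 were called in at least 1 alternative. Out of 22 alternatives, these were Lgals3 (9), Mmp12 (5), Lcn2 (3), Elovl3 (3), Krt7 (2), Plin2 (2), Col1a1 (1) and Cyp8b1 (1). Signs turned in 6 genes. Fech was -0.0056 with no filter, -0.0482 with lane, -0.0245 with pancreatic CPM and -0.0231 with clock score as a term, -0.0656 without libraries rich in pancreatic transcripts, and -0.0442 to 0.058 when 1 library was left out. Without the pancreas-rich libraries Sox9 was -0.2066, Slc4a1 0.5098, Cyp7a1 0.2069 and Krt8 0.0847. With 1 library left out, Slc4a1 ran from -3.2226 to 0.774, the highest without HFD 14, Cyp7a1 from -0.3816 to 0.1067 and Nqo1 from -0.0952 to 0.0862. The cause was not tested.

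Genes under about 1 CPM rest on few reads per liver, so their fold changes are imprecise, and 6 livers a group limit small differences. Whole-liver counts do not separate cell number from RNA per cell.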
